A study of Rattus norvegicus with 36 samples.

Results

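Gene expression was compared between 50 and 28 days after surgery in the L4 dorsal root ganglia of rats whose neighbouring L5 spinal nerve had been ligated (L5 SNL). The arrays were chosen by their titles, which name L4 ganglia at either day, and they number 12 of the 36 arrays of the series: 2 technical replicates for each day on each of the 3 Affymetrix RG_U34 chip types A, B and C. Both L4 groups carried the same L5 ligation and differed by label in the day alone. Each day was 1 pool of ganglia, with 30 rats named in most of the labels, so the day and the collection of the pool cannot be told apart. The L5 pools held the ligated ganglia of such rats, and those of sham-operated rats mixed both ganglia in 1 pool, each at the same days. The labels give no strain, sex or age. One sham array of chip B is titled 28 days and described as 50 days; it was grouped by its title.

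Dorsal root ganglia hold the cell bodies of sensory neurons, wrapped by satellite glia and surrounded by Schwann cells, macrophages, vessels and connective tissue. In the L5 ligation model, the L4 ganglion keeps its own axons intact, but these share a peripheral nerve with degenerating L5 fibres. Injured sensory neurons are known to induce the peptides Npy, Gal and Vip and the transcription factor Atf3, and to reduce several sodium channels of nociceptors. L4 neurons are of interest because the hind paw still sends its signals through them. The comparison asks which of their transcripts differed late after surgery from those at the earlier day.

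Signals are given as deposited, on a linear scale. A difference is the mean of the 2 arrays at 50 days minus that at 28 days, on log2(signal + pseudocount), and its SD is that between the 2 arrays of a pool. The pseudocount was 12.8, 17.7 and 20.2 on chips A, B and C, so differences of dim genes are understated. A probe set was called, and is said to have risen or fallen, where the difference was at least 1, which is 2-fold, and both arrays of one day lay above both of the other. There is no p-value for L4 alone, because the 2 arrays of a pool show technical spread and not that between rats.

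The L4 arrays carried sensory neuron transcripts at high signals: Prph, a neuronal intermediate filament, lay between 4277.8 and 4682.7, and the neurofilament Nefl between 5424.5 and 6886.7. All 9 sensory neuron markers measured by a probe set with exactly 1 gene passed the filter on dim probe sets. Technical arrays of an L4 pool correlated at r = 0.919 to 0.958, and on chip A 10.5% of probe sets differed by at least 1 between the 2 arrays at 50 days, against 5.05% at 28 days.

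In L4 ganglia, 154 of 15721 tested probe sets rose (0.98%) and 125 fell (0.795%). The sham pools gave 273 rises (1.74%) and 214 falls (1.36%), and the ligated L5 ganglia 857 (5.45%) and 776 (4.94%). The L4 count was the smallest of the 3 conditions in both directions over the 3 chips together, but on chip B L4 had 46 rises and sham 34. The split depended on the scaling of the arrays: it was 104 rises and 178 falls with arrays centred on their median, 114 and 147 after quantile normalization, and 75 and 350 with arrays scaled to the spiked hybridisation controls. The last scaling moved the median of all probe sets in L4 from 0.03 to -0.18, so small differences are read against it.

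Most calls were dim and close to the technical spread. The brighter pool had a signal under 150 in 124 of the 154 rises and in 84 of the 125 falls. When the day difference was taken from the first arrays alone and from the second arrays alone, the results correlated at r = 0.173 across the 15721 probe sets. Of 396 probe sets that were at least 1 higher on the first arrays and 493 on the second, 50 were shared, which is 12.6% and 10.1% of them. Of 389 and 430 lower ones, 40 were shared, or 10.3% and 9.30%. With the requirement that the closest arrays of the pools lie at least 1 apart, 21 rises and 27 falls were left, and the genes below are ordered by that gap.

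**Figure D1:**
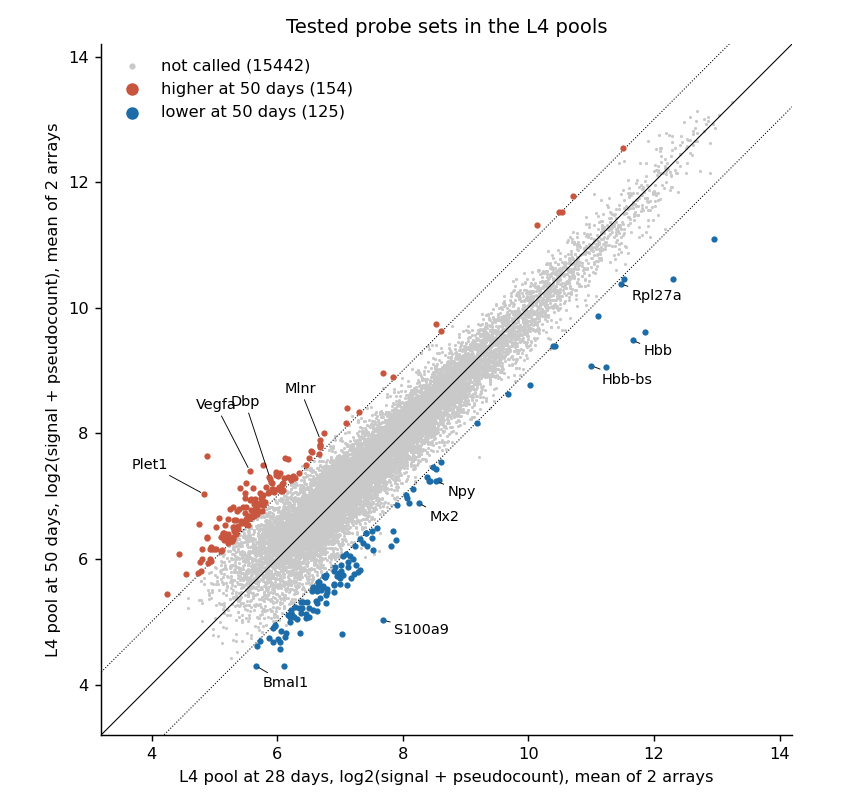
Mean log2(signal + pseudocount) of the 2 arrays of the L4 pool at 28 days (horizontal) against that at 50 days (vertical), 1 point for each tested probe set; the solid line marks equal levels and the dotted lines a difference of 1. The 154 rises (red) lie mostly at low signals, while several of the 125 falls (blue), Hbb, Hbb-bs and Rpl27a among them, lie at high ones.

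Blood transcripts gave the falls with the widest gaps. Hbb, which encodes the beta chain of haemoglobin, had signals of 3327.5 and 3144.4 at 28 days and of 775.6 and 633.7 at 50 days. The arrays of the days lay far apart, and the difference was -2.19 ± 0.15 (SD), or 4.55-fold lower. Hbb-b1 went from 2547.7 and 2257.3 to 627.2 and 428.4 (4.54-fold lower), and Hbb-bs from 2062.3 and 1995.6 to 489.4 and 558.5 (3.79-fold lower). These globin probe sets may read related sequences, so their transcripts cannot be separated. The fall was not special to L4: the difference of Hbb was -1.59 in sham and -2.38 in L5, both called. In pooled tissue, fewer cells of a type and less RNA in each cell cannot be told apart.

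Other red cell genes, where read by probe sets with exactly 1 gene, moved less in L4. Hba-a1, an alpha globin, had signals of 2700.6 and 2411.1 at 28 days and of 1883 and 2124.7 at 50 days, a difference of -0.35 that was not called. A probe set annotated to more than 1 gene had the widest gap of all falls, from 3671.4 and 3708.3 to 755.2 and 782.9 (-2.24). It is not assigned to a gene here, and whether it reads alpha globin was not tested. The small difference of alpha globin therefore rests on the Hba-a1 probe set alone. Alas2, the first enzyme of haem synthesis in red cells, had a difference of -0.64, with signals of 450.4 and 232.9 against 185.5 and 224.1. Slc4a1, the red cell anion exchanger, was at -0.70 in its brightest probe set and at 0.83 and 0.21 in both dimmer ones, whose arrays overlapped between the days.

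The neutrophil calcium-binding proteins fell as well. S100a9 had signals of 220.8 and 168.6 at 28 days and of 37.8 and 8.2 at 50 days, a difference of -2.66 ± 0.66 (6.31-fold lower). One S100a8 probe set fell from 121.4 and 115.7 to 7.7 and 25.3 (4.70-fold), but the other, on chip B, went from 91.4 and 75.9 to 112.4 and 94.6. The S100a8 result therefore rests on 1 of 2 probe sets. RatNP-3b, a neutrophil defensin, was at 138.8 and 134.5 and then at 87.1 and 82.8, a difference of -0.61 without a call. In the lists given here and below each gene stands by its brightest tested probe set. Of 10 measured genes in the list of red cells and neutrophils, 9 were below 0, 3 fell and none rose, and the list's median was -0.63 beside 0.03 over all tested probe sets. How much blood each pool held was not measured.

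Peptides induced by axon injury were lower in the uninjured L4 ganglia at 50 days. Npy, neuropeptide Y, had signals of 419 and 306.6 at 28 days and of 113.2 and 168.1 at 50 days, a difference of -1.30 ± 0.34 (2.46-fold lower). Gal, galanin, was at 277.5 and 219.3 and then at 110 and 129.5, a difference of -0.97 that stayed just under the call. Vip, vasoactive intestinal peptide, was at 177 and 198.2 and then at 101.4 and 96.8 in its brightest probe set, a difference of -0.80. Its dimmer probe set fell from 57.9 and 50.1 to 7.2 and 28.6 (-1.21). For all 3 peptides the arrays of the days did not overlap.

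The same peptides were lower at 50 days in the other conditions too. Npy was 2.84-fold lower in sham and 3.62-fold lower in L5, and the brightest probe set of Vip had differences of -1.18 and -1.70, all called. Gal had a difference of -0.72 in sham, where it was not called, and of -1.67 in L5, where it was. L4 levels stood between those of sham and L5 at both days: Npy was above sham by 0.74 at 28 days and by 0.95 at 50 days, and below L5 by 1.46 and 0.90. Gal in L4 was above sham by 0.80 and then by 0.55. Vip in L4 was above sham by 0.66 and then by 1.03. The comparison with sham has 1 pool on either side at each day and carries no test.

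Several other genes of the injury response were lower without reaching 2-fold. Cacna2d1, the calcium channel subunit that binds gabapentin, had signals of 824.6 and 855.7 at 28 days and of 543.4 and 533.8 at 50 days, a difference of -0.63 ± 0.03. Its difference was -0.13 in sham and -1.03 in L5. Lgals1, a galectin that promotes axon growth, went from 2771.2 and 2706.7 to 1819.1 and 1856.6, a difference of -0.57 ± 0.02, against 0.46 in sham and -0.23 in L5. Atf3 was at 189.5 and 251.6 and then at 138.7 and 142.6 (-0.59). Jun, its partner in the injury response, was at -0.44, and Gap43, a growth cone protein, at -0.26, from 1753.8 and 1749.8 to 1503.7 and 1426.1. Reg3b was dim, at 35.9 and 49.2 and then 23.9 and 24.2.

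Of 33 measured genes in the axon injury and regeneration list, 24 were below 0, and in 17 of them both arrays at 50 days lay under both at 28 days. Over all genes tested, 47.7% were below 0 and 22.2% had arrays apart in that direction. The median was -0.25, against -0.05 in sham and -0.44 in L5, and it was -0.36, -0.23 and -0.47 with median centring, quantile normalization and the hybridisation controls. Some members were higher at 50 days: Stat3, a signal transducer of cytokine receptors, by 0.53, Basp1 by 0.33 and Ngfr, the low-affinity neurotrophin receptor, by 0.28. By brightest probe set Npy was the one gene of the list that was called, and the dimmer probe set of Vip was called too. The lowest difference of the list, -1.37, belonged to another gene, which was not called because its arrays overlapped between the days.

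**Figure D2:**
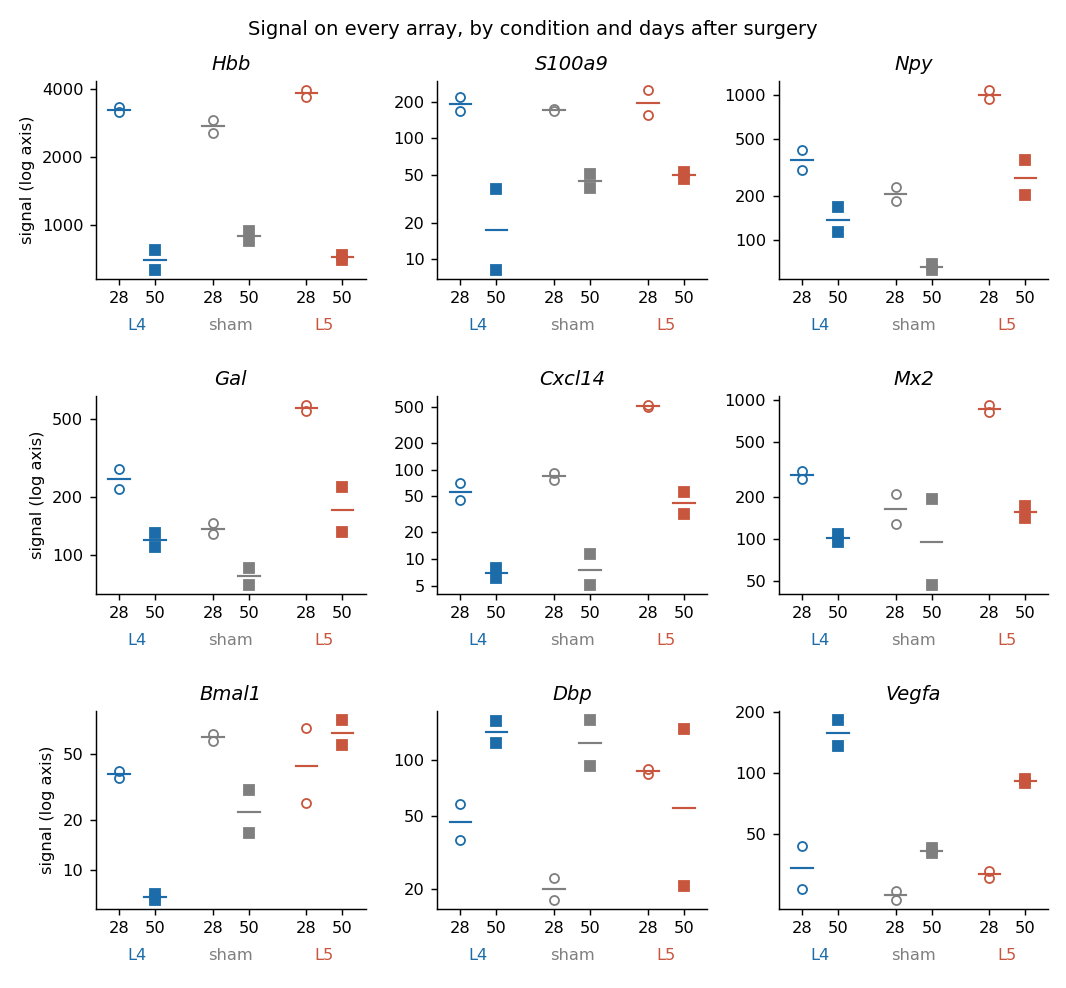
Signal on each array (log axis) for 9 genes in the L4, sham and L5 pools at 28 days (open circles) and 50 days (filled squares); bars mark the geometric mean of the 2 arrays of a pool. Hbb, S100a9, Npy and Cxcl14 were lower at 50 days in all 3 conditions, whereas Bmal1 and Dbp moved in opposite directions in L4 and sham and overlapped between days in L5.

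Among 9 measured circadian clock genes, the 2 that were called moved in opposite directions. Bmal1, the activator of the clock, had signals of 36 and 39.4 at 28 days and of 6.6 and 7.2 at 50 days in L4, a difference of -1.36 ± 0.05 (2.56-fold lower). Both L4 signals at 50 days lay under the chip A pseudocount of 12.8, near the floor of the chip. Those at 28 days lay close to the filter signal of 39.3, which was applied to the mean over all conditions. The pseudocount narrows the spread of such dim arrays, so the small SD is no measure of precision. Bmal1 was also called in sham, at -1.09, while its difference in L5 was 0.51, with overlapping arrays. Dbp, an output gene that the clock activates, had signals of 57.9 and 36.9 and then of 163.7 and 124.1 in L4, a rise of 1.39 ± 0.31 (2.62-fold). It rose by 2.06 in sham, and its difference in L5 was -0.44.

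The other clock genes were not called in L4. Nr1d1, which encodes the repressor Rev-erb alpha, was at 133.7 and 157.4 and then at 165.5 and 264.1, a difference of 0.49, and its second probe set was at 0.65. Bhlhe41 was at 0.38. Tef, Hlf, Cry2 and the brighter Nr1d2 probe set overlapped between the days, and the dimmer Nr1d2 probe set went from 76.6 and 88.7 to 109.7 and 117.7 (0.39). The labels do not give the hour at which ganglia were taken.

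Rev-erb and ROR receptors are known to act on Bmal1 through paired response elements near its start site, which are shown here because Bmal1 and Nr1d1 are both measured. The motif AGTAGGTNA, chosen after the values were seen, was searched on both strands of RefSeq promoters (250 bases before to 50 after a start, GRCr8). The stretch below is chr1:176766214-176766327, on the + strand, with both matches in capitals.
Bmal1: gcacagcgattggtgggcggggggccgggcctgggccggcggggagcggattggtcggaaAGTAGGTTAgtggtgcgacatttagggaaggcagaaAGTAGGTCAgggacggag
Of 33469 such promoters, 202 (0.604%) held the motif and 2 held it more than once. Of the 8 measured clock genes with a promoter in the table, Bmal1 alone had a match. The open base N of the motif stands where both Bmal1 matches differ, so these counts are no test of Bmal1 against other promoters. The matches describe the sequence and say nothing on what bound there.

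Transcripts of the extracellular matrix were lower at 50 days in L4, though less so than in the other conditions. Of 51 measured matrix genes, 34 were below 0, and in 20 the arrays at 50 days lay under those at 28 days, against 22.2% of all genes. The median was -0.19 in L4, -0.45 in sham and -0.76 in L5. Col3a1, a fibrillar collagen, went from 1368.2 and 1200.5 to 683.2 and 591, a difference of -0.998 that stayed just short of the call. Lum, a collagen-binding proteoglycan, went from 360.4 and 407.8 to 211.1 and 229.2 (-0.77). Fn1, fibronectin, went from 613.4 and 573.5 to 411.9 and 363.2 (-0.60), against -1.70 in sham and -2.28 in L5. These 3 genes were picked after their values were seen. Bgn, biglycan, was called at -1.20, but 1 array decided it: its signals were 257 and 264.2, then 235.4 and 44.4, and its second probe set was at 0.03.

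Ribosomal protein genes were lower together. Of 51 measured, 45 were below 0, and in 35 both arrays at 50 days lay under both at 28 days, which held for 22.2% of all genes. The median was -0.28, against -0.14 in sham and -0.61 in L5. Rpl27a, a protein of the large subunit, was the one called: it had signals of 2817.3 and 2825.1 and then of 1277.7 and 1364.1, a difference of -1.09 ± 0.05 (2.13-fold lower), against -0.12 in sham and -0.61 in L5. Rpl9 was at -0.89 and Rps27 at -0.93. Ribosomal genes are bright, and bright probe sets as a whole were slightly lower: the 851 tested probe sets with a mean signal of 1000 or more had a median of -0.04. The 33 ribosomal ones among them had a median of -0.23, and the other 563 with 1 gene had -0.03.

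Subunits of oxidative phosphorylation showed a smaller shift of the same sign. Of 65 measured, 46 were below 0, 33 had arrays apart in that direction, against 22.2% of all genes, and the median was -0.16, beside -0.06 in sham and -0.15 in L5. No subunit was called by its brightest probe set. Cox7b had signals of 1234.4 and 943.6 and then of 807.8 and 643.4 (-0.57), while Cox5a went from 120 and 123.1 to 174.9 and 208.9 (0.60). Proteasome subunits were at a median of -0.12, with 21 of 28 below 0.

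Genes of cell division had a median of -0.16 over 17 genes, and of -0.07 on the second arrays alone. Of the 17, 11 were below 0 and 6 above. Both arrays at 50 days lay under both at 28 days in 5, against 22.2% of all genes, and above them in 3, against 24.4%. Pcna, a clamp of DNA replication, went from 685.5 and 626.4 to 381.2 and 281.3 (-0.97), and the proliferation marker Mki67 from 113.6 and 104.8 to 40.8 and 55.1 (-0.96). Plk1, a mitotic kinase, was called lower, from 120.6 and 130.7 to 26.5 and 45.3, against differences of 0.27 in sham and 0.06 in L5. Pcna and Mki67 were picked after their values were seen.

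**Figure D3:**
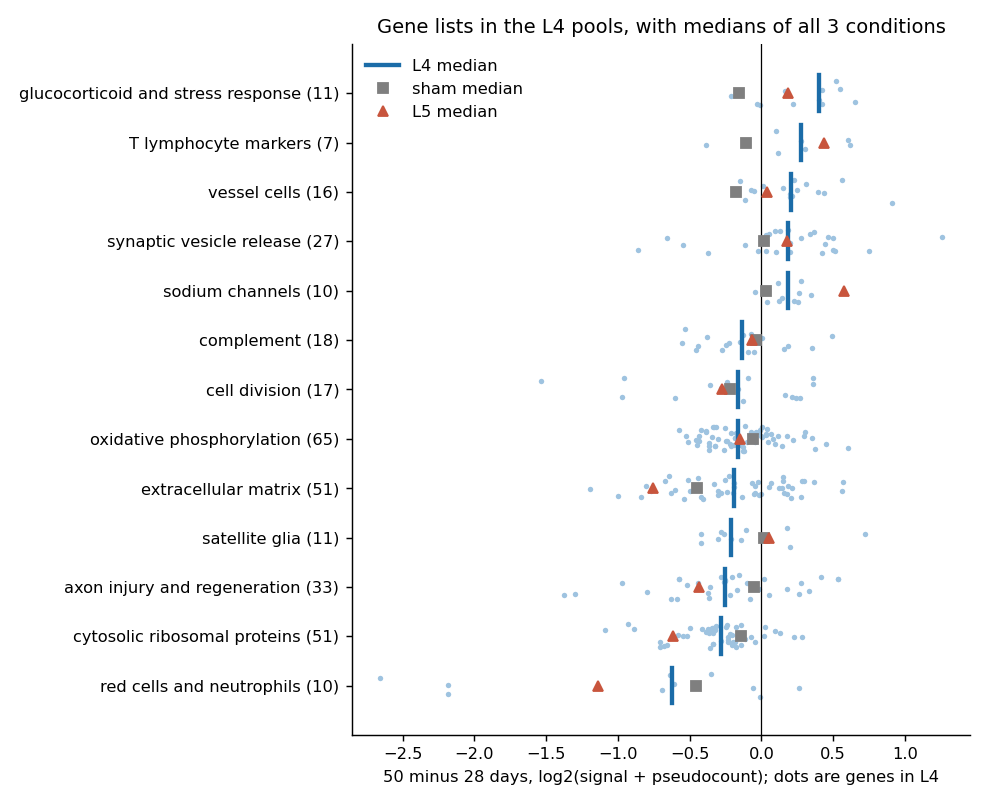
Day differences in L4 (50 minus 28 days, log2 of signal plus pseudocount) for the genes of 13 lists, each dot a gene; bars mark the L4 median and the symbols the medians of sham and L5, with the number of genes measured in parentheses. Red cells and neutrophils (-0.63) and ribosomal proteins (-0.28) lie lowest, and glucocorticoid and stress response genes (0.40) highest.

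Genes that define sensory neurons differed little between the days. Calca, the precursor of CGRP, had signals of 1574.1 and 1518.9 and then of 1641.7 and 1473.3, with overlapping arrays. Tac1, the substance P precursor, was at 3481.8 and 3291.8 and then at 2968.9 and 2699 (-0.26). Sst, somatostatin, was higher in both of its probe sets, by 0.68 and 0.73. The brighter probe set went from 450.5 and 478 to 816.7 and 688.2, and its difference was -0.01 in sham and 0.94 in L5. The 18 general neuronal markers had a median of 0.10, the 10 genes of peptidergic nociceptors 0.13 and the 8 of non-peptidergic nociceptors 0.15. None of these 3 lists met the margin of 0.15 beyond the median of all probe sets together with separate arrays.

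Sodium channel genes were slightly higher, with 9 of 10 above 0 and a median of 0.18, although this became -0.04 when arrays were scaled to the hybridisation controls. Scn11a, the nociceptor channel Nav1.9, had signals of 920.3 and 823.6 and then of 1129.5 and 1087.1 (0.34). Scn10a, which encodes Nav1.8, had overlapping arrays: 216.2 and 460.7, then 384.8 and 385.8. Both are genes reduced in injured neurons, and in L5 they were higher at 50 days by 0.63 and 0.70. Of 27 potassium channel genes, Kcnc4 alone was called, from 22.2 and 65.8 to 103.7 and 106.2. The heat and acid sensor Trpv1, the ATP receptor P2rx3, Scn9a and Bdnf overlapped between the days in their brightest probe sets. The other probe set of Scn9a was at 0.61.

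Synaptic vesicle genes had a median of 0.18, with 21 of 27 above 0, which became -0.08 under the hybridisation controls. Snap25, part of the fusion machinery, was at 4189.6 and 3503.7 and then at 6401.5 and 6509.5, a difference of 0.75. Unc13a, a priming factor for vesicles, rose from 29.9 and 17.2 to 84.5 and 62.7 (2.39-fold). Uchl1, an abundant neuronal deubiquitinase, shows how far probe sets can disagree: 1 of its 5 probe sets rose from 1175 and 1029.6 to 2879.6 and 2234.1, and the others were at 0.07, -0.10, -0.35 and -0.49.

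Genes that respond to glucocorticoids and stress had the highest list median, at 0.40, with 8 of 11 above 0 and none called. It was 0.26, 0.28 and 0.17 with median centring, quantile normalization and the hybridisation controls, and was -0.16 in sham and 0.18 in L5. Errfi1, a feedback inhibitor of EGF receptors, went from 123.8 and 123.5 to 208.1 and 204 (0.65). Sgk1, a kinase induced by glucocorticoids, went from 56.3 and 83.5 to 120.1 and 93.8 (0.55). Klf9 went from 313.7 and 295.9 to 447.3 and 380 (0.42), against -0.33 in sham and -0.28 in L5. Other lists of cell state stayed near the median of all probe sets: heat shock and unfolded protein genes were at -0.03, immediate early genes at 0.01, hypoxia and glycolysis genes at 0.05 and cholesterol synthesis genes at 0.08.

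Satellite glia genes had a median of -0.21 over 11 genes, which became 0.12 when the mean over all probe sets of a gene was taken. Fabp7, a lipid-binding protein of satellite glia, was at 188.3 and 199.8 and then at 132.3 and 150.8 (-0.42). It rose by 1.02 in L5. Gja1, the main glial gap junction protein, went from 249.7 and 189.2 to 165.3 and 149 (-0.42). Sox10, a transcription factor of glia, went the other way, from 132.1 and 129.5 to 286.3 and 173.7 (0.72). The myelin genes Pmp22 and Mbp overlapped between the days.

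Macrophage genes went both ways in L4, with 8 of 14 above 0 and a median of 0.08, which became -0.06 with median centring and -0.17 with the hybridisation controls. It was -0.12 on the first arrays alone and -0.11 on the second. Both arrays at 50 days lay under both at 28 days in 5 genes, against 22.2% of all genes, and above them in 2, against 24.4%. The median was -0.003 in sham and -0.99 in L5. Of 4 macrophage markers, Cd68 was higher by 0.28, and Aif1, Csf1r and Fcer1g were at -0.997, -0.57 and -0.26. Csf1r, the growth factor receptor of macrophages, went from 101.5 and 104.4 to 65.1 and 62.6. RT1-Da, an MHC class II chain, went from 580 and 590.2 to 290.9 and 359.2 (-0.83), and was at -2.08 in L5. Of 9 MHC class II genes 7 were below 0, but a dim probe set of RT1-Db1, another chain, rose from 43.3 and 16 to 81.4 and 97.5. Cd74, its invariant chain, fell in 1 probe set, from 243 and 184.6 to 99.9 and 35.8, while its brightest probe set overlapped between the days. Complement genes had a median of -0.14, with 13 of 18 below 0. The chemokine Cxcl13 was called lower from 41.7 and 38.8 to 3.8 and 27.9, near the floor of the chip.

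Markers of other cell types were present at different levels. The T cell markers Cd3d, Cd2 and Cd5 lay under the filter, with signals of 4.1 to 36.7, beside a median of 0.28 over 7 T lymphocyte genes. Of 4 fat cell markers, Adipoq, Plin1 and Fabp4 lay under the filter, and Lep had signals of 576.8 and 865.3 and then of 911.8 and 654.1. The summed signal of 4 skeletal muscle markers was 1001.9 and 1038.4 at 28 days and 1141.1 and 1299.6 at 50 days, and the median over 26 muscle genes was 0.06 in L4, against 0.59 in sham and -0.27 in L5. Vessel genes had a median of 0.20 over 16 genes. The part of these cells in the differences above was not tested.

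The rises with the widest gaps were mostly of dim genes. The widest of all was a probe set that is unnamed here, from 15.5 and 17.9 to 145.1 and 236.4. Vegfa, a growth factor for vessels, rose from 26.9 and 43.6 to 135 and 181.6 in 1 probe set (3.58-fold), while its brighter probe set, with signals of 758.2 to 849.8, was at 0.05. The rising probe set was at 0.52 in sham and was also called in L5, at 1.22. Plet1 rose from 12.3 and 9.4 to 201.2 and 60.5, while its signals in sham and L5 lay between 21.3 and 115.8 at either day. Notch1, a receptor of cell fate decisions, rose from 21.8 and 27.4 to 95.2 and 131.6, but its other probe sets were at -0.81 and 0.36. Chrnb4, a nicotinic receptor subunit of autonomic and sensory ganglia, rose from 60.5 and 41.2 to 141.5 and 167.4 (2.65-fold), with a second probe set at 0.24. Edn3, a ligand of endothelin receptors, rose from 20.6 and 31 to 85.3 and 112.1. Slc2a4, the insulin-regulated glucose carrier, rose from 18.3 and 15.4 to 53.4 and 86.8, and also rose by 1.29 in sham.

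The other rises of the 14 included Tpm2, a tropomyosin, from 17.4 and 22.2 to 71.2 and 70.3, with its second probe set at 0.41. Slc29a4, a carrier of monoamines, rose from 42.2 and 53.5 to 124.8 and 126.6. Mlnr rose from 95.2 and 85.9 to 198.2 and 255.5, with its other probe set at -0.18. Alkbh2, a DNA repair enzyme, rose from 21.8 and 23.4 to 57.5 and 90, and it also rose by 1.33 in L5. Pip rose by 1.72 ± 0.68 in L4 and by 1.57 in L5. Sys1, Jmjd8 and Begain completed the 14, with rises of 1.27, 1.37 and 1.70. Sys1 had a second probe set at -0.14.

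Among the remaining falls, Cxcl14, a chemokine of skin and nerve tissue, fell from 70.2 and 45 to 6 and 7.8 in 1 of 3 probe sets (3.52-fold), with the others at -0.41 and -0.06. The same probe set was at -2.22 in sham and at -3.26 in L5, both called. Mx2, an interferon-induced GTPase, fell from 306 and 269.3 to 94.6 and 107.7 (2.57-fold), with its other probe set at -0.29. It was called in L5, at -2.35, while in sham its difference of -0.65 came with overlapping arrays. Nsmce4a, a subunit of a DNA repair complex, fell from 232 and 196 to 63.6 and 76.4, and was at -1.06 in L5. Fxyd3, a regulator of the sodium pump, fell from 72.2 and 82.2 to 19.9 and 17.9. Tfeb, a transcription factor for lysosome genes, fell from 89.2 and 75.5 to 22.8 and 14.3. Neither Fxyd3 nor Tfeb was called in sham or L5.

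Single members of other lists were called as well. Ptger3, a prostaglandin E2 receptor of nociceptors, fell from 58.5 and 94.8 to 29.2 and 16.3 (2.51-fold), against 0.33 in sham and -0.30 in L5. Klf10 was called lower on account of 1 array, with signals of 140.3 and 152.4, then 106.4 and 14.4, and its second probe set was at 0.31. N5 fell from 81.3 and 59.3 to 14.6 and 16.6, and Sash3, an adaptor of lymphocytes, from 79 and 84.1 to 25.9 and 17.7. Both were called in the opposite direction in L5.

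**Figure D4:**
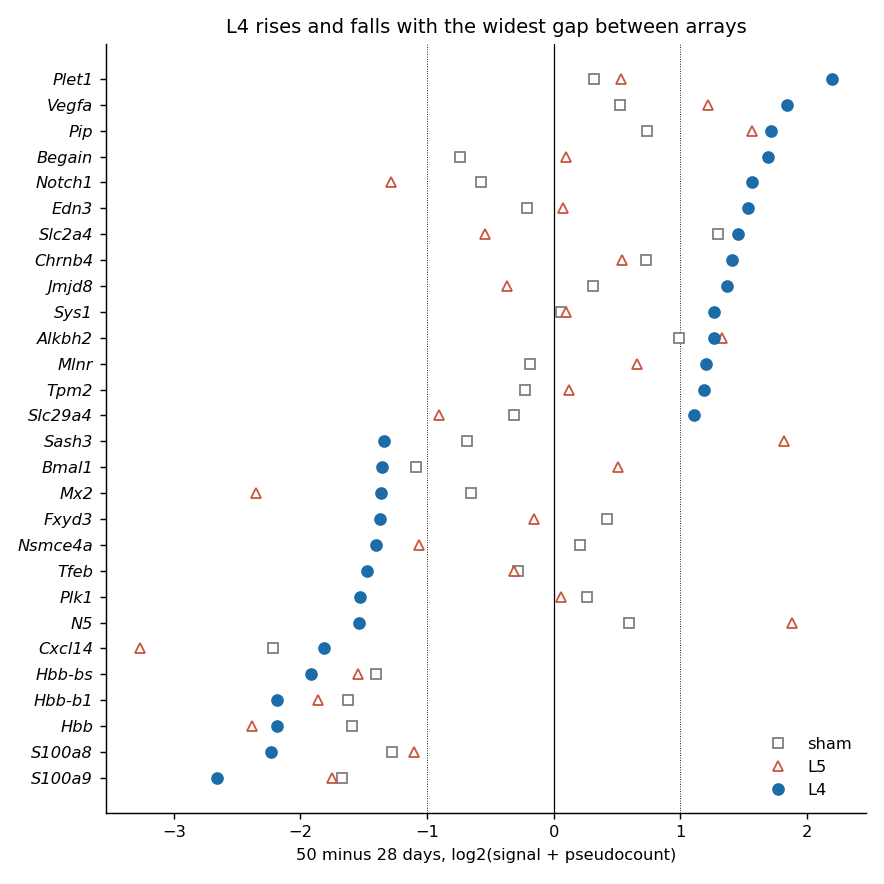
Day differences (50 minus 28 days, log2 of signal plus pseudocount) in L4 (filled circles), sham (squares) and L5 (triangles) for the 14 rises and 14 falls of L4 with the widest gap between arrays; dotted lines mark a difference of 1. The globins, S100a8, S100a9 and Cxcl14 fell past that line in all 3 conditions, whereas sham and L5 lie near 0 for Edn3, Sys1, Tpm2 and Plk1.

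Set beside the other conditions, most of the L4 calls did not recur, but they recurred more often than calls among all tested probe sets. Of all tested probe sets, 1.74% were called higher in sham and 5.45% in L5, and 1.36% and 4.94% lower. Of the 154 rises, 18 were also called higher in sham and 36 in L5, which is 11.7% and 23.4% of them, and 6.59% and 4.20% of the rises in sham and L5. Of the 125 falls, 16 were also called in sham and 41 in L5, or 12.8% and 32.8% of them, and 7.48% and 5.28% of the falls in those conditions. Of the rises 5 were called lower in sham and 2 in L5, and of the falls 4 were called higher in sham and 8 in L5. Over all tested probe sets the day differences of L4 correlated at r = 0.197 with those of sham and at r = 0.294 with those of L5, which share no arrays but come from the same platform and the same pair of days.

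In all 3 conditions 13 probe sets fell and 6 rose. The falls with 1 gene were Hbb, Hbb-b1, Hbb-bs, S100a9, S100a8, Cxcl14, Npy, Cd74, Emp1 and Ncoa4, and the rises were Ntn3, Rgs12 and Nf1. Some of these calls were narrow. The gap of Nf1 in L4 was 0.026, with signals of 4.8 and 41.7 and then of 42.7 and 57.4. That of Cd74 in sham was -0.016, with signals of 128 and 145 and then of 24.5 and 126.4. Ncoa4, the receptor that carries ferritin to lysosomes, had signals of 812.4 and 787.4 and then of 377.7 and 374.7 in L4. Emp1, an epithelial membrane protein, went from 402.8 and 266.8 to 167.9 and 105.7. Ntn3, a netrin, went from 130.8 and 105.2 to 260.3 and 273.9. The remaining probe sets had no gene or more than 1.

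The one replicated test of the day takes the 6 pools together, with 1 pool of each condition at each day and 2 residual degrees of freedom. Its replicates are the 3 conditions, so its p-values measure how alike the conditions changed and not the spread between rats. The L4 and L5 pools of a day may come from the same rats, and the day and the collection cannot be told apart here either. limma called 45 of 15721 probe sets (0.286%), 16 higher and 29 lower at 50 days, at an adjusted p under 0.05. Of the 45, 26 were annotated to exactly 1 gene. Several of the higher ones were made from the same sequence record, so the 16 are not separate genes. In all 45 the 3 conditions had the same sign, which a test of a shared day change favours. Hbb had a day difference of -2.05 (SE 0.17, adjusted p = 0.00036), Npy of -1.55 (SE 0.18, adjusted p = 0.0054) and S100a9 of -2.03 (SE 0.26, adjusted p = 0.0092). Vip passed at adjusted p = 0.035 and Cxcl14 at 0.012, while Gal, at 0.055, Bmal1, at 0.41, and Dbp, at 0.21, did not. In the extracellular matrix list 6 of 51 genes passed, all lower: Col3a1, Col5a2, Fn1, Lum, Sdc2 and Thbs4. Npy and Vip were the 2 of 33 that passed in the injury list, and no ribosomal protein gene passed. The count fell to 0 without the intensity trend in the variance prior, and rose to 421 when the L4 pools were left out, to 77 without the sham pools and to 67 without the L5 pools.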

How the data were processed

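Total RNA of rat dorsal root ganglia was measured on Affymetrix RG_U34 arrays. The authors deposited linear intensity signals. MAS5 is the tool named, per the submitters' processing notes, with its version and settings not given in the sources used here. On the deposited arrays the mean without the outer 2% of values at each end was about 150, so differences are relative to the mean of an array. No detection calls were used, so presence or absence of a dim transcript was not judged, and the number of arrays limits the precision.

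Arrays of a chip type were brought to one trimmed mean and put on log2(signal + pseudocount), with the 20th percentile of a chip type as pseudocount. Control probe sets and those under the 40th percentile of mean signal over the 12 arrays of a chip type were left out. A gene in a list was represented by its brightest tested probe set annotated to exactly 1 gene in the platform annotation, whose symbols were checked against RefSeq names of GRCr8. The named genes were the 14 rises and 14 falls with the widest gap between arrays, up to 3 called members of each of 40 lists, and a set of neuronal, glial and injury genes named in any case; others were picked after their values were seen. A list was described as higher or lower where its median lay at least 0.15 from that of all probe sets and its level on both arrays of a day lay apart from the other day. The arrays chosen and the lists were set with earlier results of these data known. limma 3.58.1 in R 4.3.3 fitted condition and day to the 6 pools of each chip type (lmFit, eBayes with trend), with Benjamini-Hochberg adjustment over all 3 chip types. Scripts were tested on simulated data.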

Additional observations from a re-analysis of the deposited data

Results flagged for a closer look

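Called day differences of L4 and L5 were opposite in 3 named genes, with every array of each pool on its side; whether the difference between the ganglia is larger than that between pools was not tested. Notch1, in its probe set on chip C, rose by 1.57 in L4 and had a difference of -1.28 in L5, where its signals were 85 and 184.1 at 28 days and 62.9 and 23.5 at 50 days. Its dimmer probe set on chip A went the other way in both ganglia, at -0.81 in L4 and 1.34 in L5, where it was called. The brighter Notch1 probe set on chip A was at 0.36 in L4, with overlapping arrays, and at -0.52 in L5. N5 had a difference of -1.54 in L4 and of 1.88 in L5, with L5 signals of 17.7 and 36 and then of 141.6 and 118.4. Sash3 had a difference of -1.34 in L4 and of 1.82 in L5, with L5 signals of 44.6 and 13.8 and then of 149.7 and 127.9.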

How the results depend on the processing

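The counts of L4 rises and falls depended on the handling of dim probe sets more than the named genes did. Against 154 rises and 125 falls, they were 240 and 192 with the pseudocount at the 10th percentile, 30 and 29 at the 40th, 399 and 257 without the filter, and 38 and 52 with the filter at the 60th percentile. Scaling to the hybridisation controls gave 75 and 350, and a gap of at least 1 between the closest arrays gave 21 and 27. With 1 array of each pool the rises numbered 396 to 493 and the falls 389 to 430; no spread between arrays is left there. Median centring, quantile normalization and dropping the need for separate arrays kept both counts within 1.5 times. Of the 37 named calls, 35 or more recurred under each of the 3 other scalings, 33 with either array alone, 22 with the higher pseudocount and 16 with the stricter filter, which leaves out dim genes. No named gene that was called changed sign.

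The day fit over 6 pools called 45 probe sets. It called 90 with median centring, 15 after quantile normalization, 291 with the hybridisation controls, 23 without the filter, 2 to 5 with 1 array of each pool, 421 without the L4 pools, 77 without the sham pools and 0 without the intensity trend; the cause was not tested. No paired analysis was possible because the replicate numbers mark arrays of 1 pool, and the pools of a condition share no rats by label.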
